A study of Drosophila melanogaster with 2 samples.

Results

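The 9 genes described here are core components of the Drosophila Dpp pathway: dpp, tkv, sax, put, Mad, Med, Dad, shn and brk. They were selected by name, with their CG12744 peaks already known, and each name matched 1 of the 13945 protein-coding genes on the 6 chromosome arms in the peak lists. A peak was assigned to a gene when its summit lay inside the gene or within 2000 bp of it. By this rule 13 of the 2758 thresholded peaks belonged to the 9 genes. These positions and signals are what the genes were chosen on, so they are given as a description, with no test.

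The peaks come from chromatin immunoprecipitation and sequencing of CG12744, assayed as a transcription factor. The material was whole embryos of Drosophila melanogaster, collected 0 to 24 h old, of both sexes. The embryos were from 1 transgenic line, strain CG12744-GFP, in which CG12744 carries green fluorescent protein at its C-terminal end, and the precipitation used an antibody against that tag according to the description, whereas the antibody field names CG12744 itself. All material belonged to 1 group with 2 biological replicates, numbered 2 and 4, so no conditions were compared. Whole embryos mix all cell types, and a peak does not show in which cells the protein was bound. The authors deposited 30000 peaks for each replicate, 30000 for the pooled reads and the thresholded list, in which the deposited signal ran from 68.4 to 1148 with a median of 99.1. Signal is the authors' value on a scale that is not stated, it is comparable within a list only, and the number of reads behind it is unknown. Rank 1 is the highest signal of a list.

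Dpp is a secreted ligand of the bone morphogenetic protein type. It binds complexes of type I and type II receptor kinases, which phosphorylate the Smad protein Mad. Mad then enters the nucleus with its partner Med and, together with the zinc finger protein Schnurri, encoded by shn, silences brk, the gene of a repressor that keeps Dpp targets off. In the embryo the pathway patterns the dorsal side, and later it acts in the gut, the heart and the imaginal discs.

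Thresholded peaks lay at 6 of the 9 genes and at 1 of their 22 annotated start sites. The gene shn had 6 peaks, Dad and Med had 2 each, and dpp, Mad and brk had 1 each, whereas the receptor genes tkv, sax and put had none. By the same rule 25.9% of all protein-coding genes had a thresholded peak. The share rose with the length of the gene, from 13.9% in the shortest quartile of gene span through 22.6% and 27.8% to 39.1% in the longest. Of the 9 genes, 6 are in the longest quartile and 3, sax, Med and brk, in the next. The 9 windows held 5.75 thresholded peaks per 100 kb, against 2.49 per 100 kb over the merged windows of all protein-coding genes, and the value was 4.28 without shn. Since the genes were chosen with their peaks known, nothing about the pathway is read from these values. The highest 2758 peaks of replicate 4 alone gave the same 6 genes, and those of replicate 2 alone added tkv and sax, for 8 genes and 16 peaks.

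**Figure D1:**
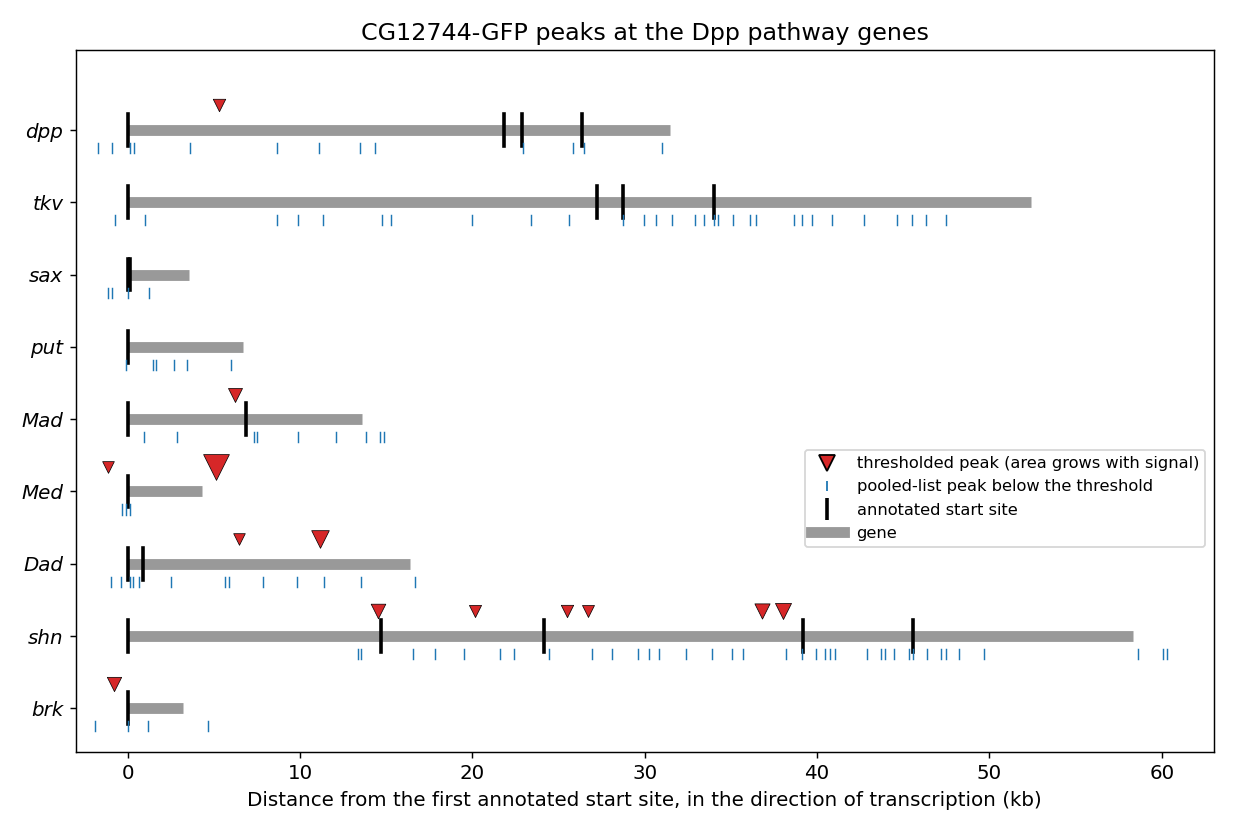
Peaks along the 9 genes, drawn from the first annotated start site (0 kb) in the direction of transcription. Red triangles are the 13 thresholded peaks, with an area that grows with the signal; blue ticks are the 119 pooled-list peaks below the threshold; black bars are start sites. The 6 triangles at shn lie between 14533 and 38004 bp, and tkv, sax and put have blue ticks only.

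The sequence under the summit is shown for 5 of the 13 peaks, those at dpp, Mad, Dad and brk, as the 201 bases of the Release 6 plus strand centred on the summit. Capitals mark CACTG on either strand, a sequence singled out from earlier results of these data, and the sites of Brk, which are GGCG followed by any pair of C and T, on either strand. GTCTG, the short sequence that Smads bind, occurs in none of these 5 windows and in 2 of the 8 windows not shown, both at shn.
dpp, chr2L:2433568-2433768: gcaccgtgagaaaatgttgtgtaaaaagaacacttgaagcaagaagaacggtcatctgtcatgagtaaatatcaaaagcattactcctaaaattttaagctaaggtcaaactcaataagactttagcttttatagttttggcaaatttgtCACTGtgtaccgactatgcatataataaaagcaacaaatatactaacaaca
Mad, chr2L:3153302-3153502: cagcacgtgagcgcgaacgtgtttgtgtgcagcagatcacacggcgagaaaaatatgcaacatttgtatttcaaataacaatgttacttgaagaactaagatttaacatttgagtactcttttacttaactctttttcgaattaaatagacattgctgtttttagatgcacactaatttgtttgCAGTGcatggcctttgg
Dad, higher peak, chr3R:17065078-17065278: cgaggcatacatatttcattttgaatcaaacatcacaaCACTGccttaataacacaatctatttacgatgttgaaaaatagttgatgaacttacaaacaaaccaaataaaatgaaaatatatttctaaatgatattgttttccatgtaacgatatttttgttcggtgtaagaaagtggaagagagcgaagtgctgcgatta
Dad, lower peak, chr3R:17060374-17060574: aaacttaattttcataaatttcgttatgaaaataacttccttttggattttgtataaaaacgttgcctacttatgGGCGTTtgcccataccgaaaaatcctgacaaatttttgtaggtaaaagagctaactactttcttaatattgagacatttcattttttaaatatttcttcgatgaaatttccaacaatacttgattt
brk, chrX:7307064-7307264: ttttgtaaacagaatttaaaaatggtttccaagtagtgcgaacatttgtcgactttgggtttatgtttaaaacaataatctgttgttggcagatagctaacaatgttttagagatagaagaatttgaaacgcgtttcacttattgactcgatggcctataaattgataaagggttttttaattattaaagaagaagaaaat
CACTG stood 52 bp from the summit at dpp, 86 bp at Mad and 60 bp at the higher Dad peak. The lower Dad peak had a Brk site 22.5 bp from its summit and no CACTG, and the brk window held none of these sequences.

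The ligand gene dpp (FBgn0000490, 2L, 2428372 to 2459823, plus strand) had 1 thresholded peak in an intron, and none at its 4 start sites. The peak spanned 2433463 to 2433872, with its summit 5296 bp downstream of the first start site. Its signal was 88.1, rank 1727, in the thresholded list, 47.9, rank 1871, in replicate 2 and 40.9, rank 1758, in replicate 4. Both replicates thus placed it at nearly the same rank, and their summits lay within 40 bp of the pooled one. A further 13 pooled-list peaks lay at dpp below the threshold. The best of them, rank 4477, was 1752 bp upstream of the gene and ranked 9717 in replicate 2 and 2955 in replicate 4.

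Mad (FBgn0011648, 2L, 3146056 to 3159643, minus strand), the Smad that the receptors phosphorylate, also had a single thresholded peak. It spanned 3153197 to 3153606 in an intron, and its summit lay 649 bp upstream of the inner of the 2 Mad start sites. The signal was 116, rank 1023, in the thresholded list, 62.2, rank 1072, in replicate 2 and 57.2, rank 926, in replicate 4. Next in order of signal came a Mad peak in an intron 922 bp downstream of the outer start site, with a pooled signal of 65.4 at rank 3007. It fell just below the threshold, with rank 3388 in replicate 2 and 3173 in replicate 4.

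Both thresholded peaks assigned to Med (FBgn0288966, 3R, 31611046 to 31615375, plus strand), the partner Smad, lay outside the gene and at start sites of its neighbours. The peak spanning 31616028 to 31616329 was the highest of the 13, with a signal of 435 and rank 50. It had 242 and rank 42 in replicate 2, and 190 and rank 57 in replicate 4. Its summit was 783 bp beyond the 3' end of Med and in the 5' UTR of Mnat9, 2 bp from a start site of that gene. In the thresholded list it stood between peaks whose nearest start sites are those of chif, rank 49, and CG32176, rank 51. The second peak spanned 31609668 to 31610077, in an intron of CycG, the cyclin G gene, 58 bp upstream of a CycG start site and 1173 bp upstream of the Med start site. It had a signal of 75.2 and rank 2310 in the thresholded list. Replicate 2 placed it at rank 1411 with 55.0, and replicate 4 at rank 4146 with 26.7. Around the Med start site itself the best pooled-list peak was at rank 11752, and replicate 4 listed none within 500 bp. The summit of rank 11752 was 105 bp upstream of the Med start site. It was also in the 5' UTR of CycG, 37 bp from a CycG start site. When a peak counted only for the protein-coding gene with the nearest start site, Med had no peak.

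Dad (FBgn0020493, 3R, 17054007 to 17070408, plus strand) encodes the inhibitory Smad, which is itself induced by the pathway and dampens it. Its higher peak, spanning 17065130 to 17065283 in an intron, had a signal of 194 and rank 309. It had 104 and rank 329 in replicate 2, and 90.7 and rank 337 in replicate 4, the closest ranks of any of the 13 peaks (ratio 1.02). This summit was 10281 bp downstream of the nearest Dad start site, and no gene had a start site closer than 7497 bp, the distance to Ns1. The lower peak spanned 17060269 to 17060678 in an intron, 5577 bp downstream of a Dad start site, with a signal of 74.2 and rank 2376. The replicates differed most here, with 25.6 and rank 6222 in replicate 2 and 49.8 and rank 1206 in replicate 4 (ratio 5.16). Of all thresholded peaks listed in both replicates, 4.15% had a larger ratio of ranks than this one.

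A match to the activating element, which Mad and Med bind, lay beside the higher Dad peak. The element was searched by its published consensus on both strands. A second match lay elsewhere in an intron of Dad, and another lay in an intron of shn. The Dad matches are shown because 1 of them lay so close to a peak, with the match in capitals and 6 bases on each side, on the plus strand.
Dad, beside the higher peak, chr3R:17065362-17065388: tatcgtGGCGCCAGCTTGCCGcgtcag
Dad, other match, chr3R:17056354-17056380: tggtgtGGCGCCATTCCGACGacgcct
The match beside the higher peak was centred 197 bp from that summit and 7 bp from another pooled-list summit, which was below the threshold at rank 7547. Replicate 4 listed that place at rank 5212, and replicate 2 listed no summit within 100 bp of it. The other match was 137 bp from a pooled-list summit of rank 6325. On the 6 arms 833 places matched the element, of which 24 (2.88%) had a pooled-list summit within 50 bp and 15 (1.80%) a thresholded summit within 250 bp. A match shows only that these letters are present.

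The repressor gene brk (FBgn0024250, X, 7307939 to 7311132, plus strand), silenced by Dpp signalling, had 1 thresholded peak just upstream. The peak spanned 7306959 to 7307368, with its summit 775 bp upstream of the only brk start site. That position is also within introns of CG1677 and lncRNA:CR44357, which extend over brk on the other strand. The signal was 122, rank 915, in the thresholded list, 59.1, rank 1208, in replicate 2 and 63.2, rank 758, in replicate 4. At the brk start site itself, 1 bp from it, the pooled list had a peak of signal 33.6 at rank 9802. Replicate 4 listed it at rank 4959, and replicate 2 had no summit within 500 bp of the start site.

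The gene with the most peaks was shn (FBgn0003396, 2R, 11159086 to 11217394, plus strand), which encodes the zinc finger protein that Mad and Med recruit. All 6 of its thresholded summits were in introns. Only 18 of 13945 protein-coding genes (0.129%) had as many thresholded peaks or more. Of the 244 genes at least as long as shn, 9 (3.69%) did, and their median was 1 peak. Since shn was chosen with its peaks known, nothing is read from these shares.

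A pair of shn peaks 1196 bp apart carried the highest signals of the gene. The summit at 11197090 had a signal of 158 and rank 521 in the thresholded list, with 76.8 and rank 686 in replicate 2 and 78.9 and rank 469 in replicate 4. The summit at 11195894 had 140 and rank 682, with 72.8 and rank 760 in replicate 2 and 68.9 and rank 638 in replicate 4. They lay 1186 and 2382 bp upstream of the internal start site at 11198276, and both replicates ranked both peaks within their first 760.

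The third shn peak was the only 1 of the 13 within 500 bp of a start site of its own gene. Its summit at 11173619 was 184 bp upstream of the start site at 11173803, which is used by 2 of the 6 annotated shn transcripts. The signal was 128, rank 824, with 85.2 and rank 529 in replicate 2 but 35.4 and rank 2373 in replicate 4. In replicate 2 this was the highest shn peak, and in replicate 4 it was below both peaks of the pair and below the peak at 11179243, which had 35.7.

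The remaining 3 peaks of shn were weaker and flanked the internal start site at 11183224. The summit at 11184552 lay 1328 bp downstream of it, with a signal of 86.7 and rank 1761 in the thresholded list, 52.4 and rank 1564 in replicate 2, and 31.2 and rank 3035 in replicate 4. The summit at 11185795 lay 2571 bp downstream, with 80.2 and rank 2040, 57.5 and rank 1278 in replicate 2, and 25.5 and rank 4527 in replicate 4. The summit at 11179243 lay 3981 bp upstream, with 82.9 and rank 1912, 46.1 and rank 2019 in replicate 2, and 35.7 and rank 2339 in replicate 4. All 3 ranked lower in replicate 4 than in replicate 2, and the first 2 of them were outside the 2758 highest peaks of replicate 4.

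Below the threshold shn had a further 37 pooled-list peaks, with ranks from 3009 down. Of its 43 pooled-list peaks, thresholded ones included, 26 had a summit within 100 bp in both replicates. No pooled-list summit lay in the first 13.3 kb downstream of the outermost start site, or within 500 bp of that start site. The start site at 11204629 had a peak 215 bp upstream with a signal of 63.2 at rank 3199, close to the threshold. It ranked 3811 in replicate 2 and 2599 in replicate 4. The match to the activating element at shn, from 11205141 to 11205155, was 329 bp from a pooled-list summit of rank 8535.

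**Figure D2:**
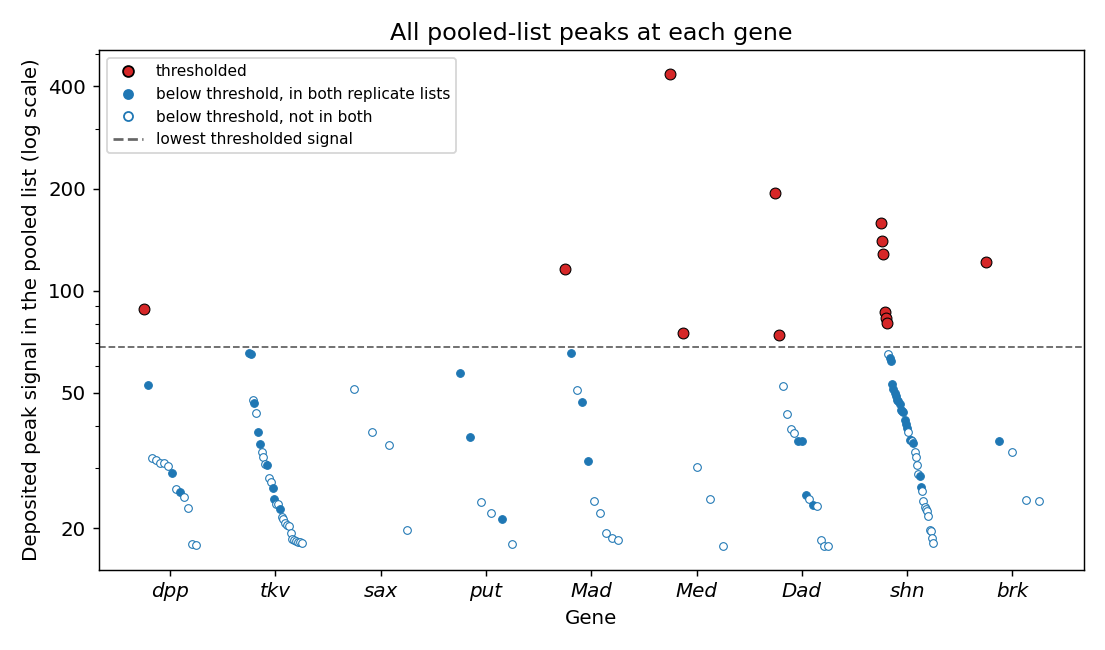
Deposited signal of every pooled-list peak at each gene, on a log scale, in order of signal within a gene. Red points are thresholded, filled blue points are below the threshold with a summit within 100 bp in both replicate lists, and open points lack one in at least 1 list. The dashed line is the lowest thresholded signal, 68.4; the 2 highest points of tkv lie just under it at 65.5 and 65.2.

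The receptor genes had no thresholded peak, but each had a weaker one at a start site. The type I receptor gene tkv (FBgn0003716, 2L, 5219000 to 5271384, minus strand) is long and had 30 pooled-list peaks, all below the threshold. The best, 25 bp upstream of 1 of its 4 start sites, had a signal of 65.5 at rank 2990, with 39.7 and rank 2718 in replicate 2 and 26.3 and rank 4255 in replicate 4. A second, in an intron, had 65.2 at rank 3020, with 36.6 and rank 3204 in replicate 2 and 29.7 and rank 3354 in replicate 4. Both stood just past rank 2758, where the thresholded list ends.

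The other receptor genes are shorter than tkv, and their best peaks were lower. For sax (FBgn0003317, 2R, 7806484 to 7810067, plus strand), the second type I receptor gene, the best pooled-list peak was in the 5' UTR, 31 bp downstream of a start site, with a signal of 51.3 at rank 4702. Replicate 2 had it at 40.1 and rank 2670, and replicate 4 listed no summit within 500 bp of either sax start site. For put (FBgn0003169, 3R, 14619030 to 14625703, minus strand), the type II receptor gene, the best peak was 98 bp upstream of the only start site, with 57.3 at rank 3843. The start site ranked 3276 with 36.1 in replicate 2 and 8757 with 19.0 in replicate 4. This summit was also in the 5' UTR of the neighbouring gene His4r, a histone H4 gene, 13 bp from its start site, and so near start sites of both genes.

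The margin of 2000 bp decided 3 of the 13 peaks, at 775 bp from brk and at 783 and 1173 bp from Med. Just outside it, the nearest thresholded peak was 2314 bp from sax, with a signal of 126 at rank 865. It lay 123 bp upstream of a start site of puml. For shn the nearest peak outside was 5363 bp away, at CG7737, with 226 at rank 219. For dpp it was 7613 bp away, for Dad 9590 bp, for put 9968 bp, for brk 13895 bp, for Med 18286 bp, for tkv 22047 bp and for Mad 59426 bp.

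**Figure D3:**
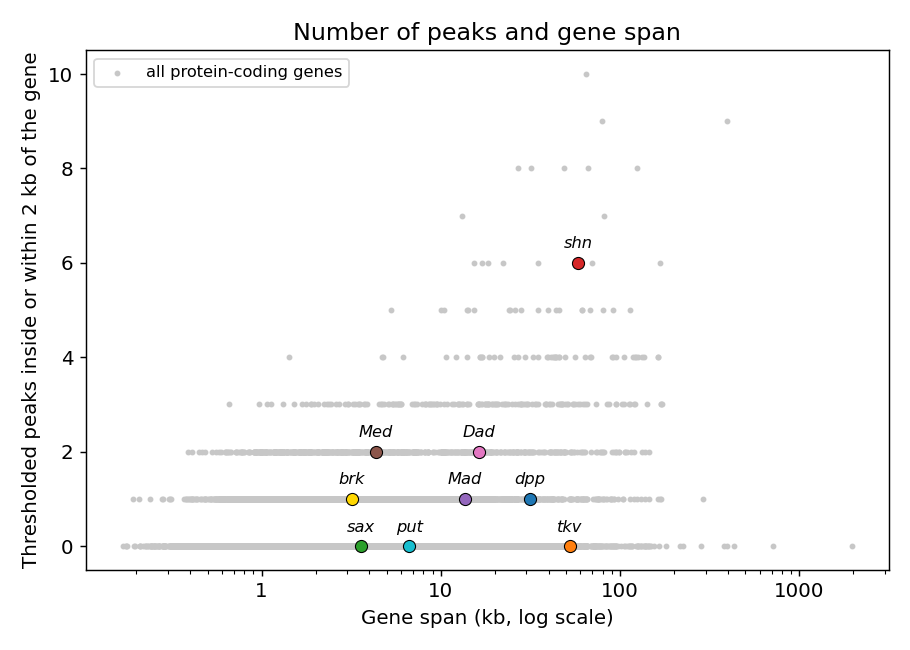
Number of thresholded peaks inside or within 2 kb of each protein-coding gene against the span of the gene (kb, log scale). Grey points are all 13945 genes and coloured points the 9 pathway genes; shn has 6 peaks and tkv, of similar span, has 0.

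All 13 peaks had a summit within 100 bp in both whole replicate lists, as did 94.4% of all thresholded peaks. Since the thresholded list was made from the replicates, this is not independent support. The median offset of the summit was 6 bp in replicate 2 and 22 bp in replicate 4, and the largest was 86 bp. Among the 2758 highest peaks of each replicate, 9 of the 13 were found in both, against 64.3% of all thresholded peaks. The ratio of the replicate ranks had a median of 1.46 over the 13 peaks and of 1.62 over all 2604 thresholded peaks listed in both. The 4 peaks outside the highest 2758 of a replicate were the lower Dad peak in replicate 2, and the lower Med peak and 2 shn peaks in replicate 4.

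**Figure D4:**
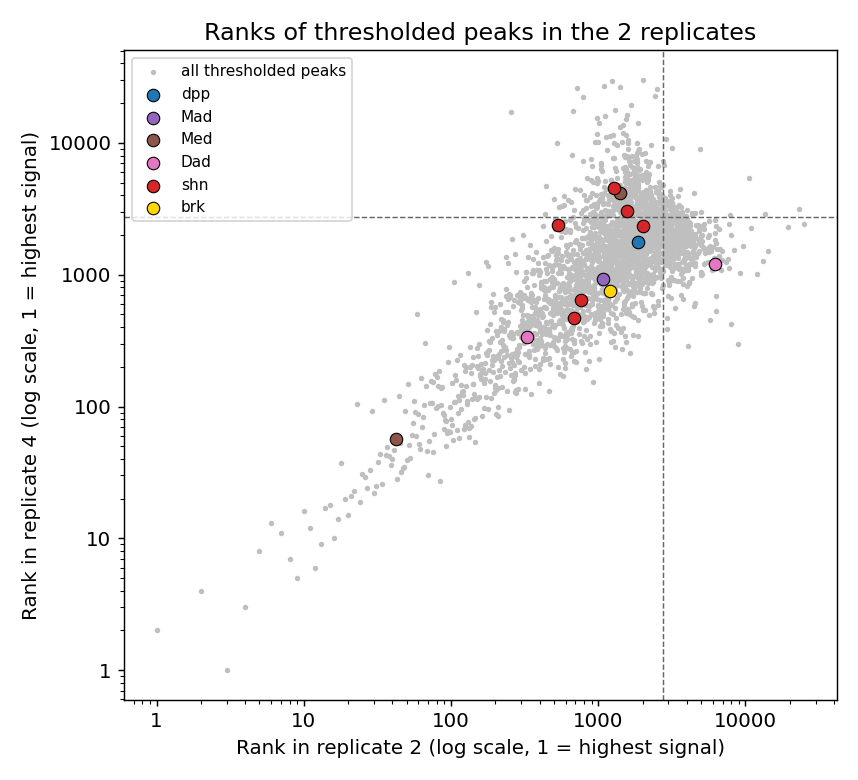
Ranks of the thresholded peaks in replicate 2 and replicate 4 (log scales, rank 1 is the highest signal), for the 2604 peaks listed in both. Coloured points are the 13 peaks of the 6 genes and dashed lines mark rank 2758 in each list. The lower Dad peak lies right of the vertical line, and the lower Med peak and 2 shn peaks lie above the horizontal one.

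The 13 peaks were mostly away from start sites, but 6 of them were at shn alone. Of the 9 genes 6 are in the longest quartile of span, and the shares given for all peaks were not matched for gene length. Of the 13 summits, 3 (at Mnat9, CycG and shn) lay within 500 bp of a start site of any gene, against 57.9% of all thresholded summits. The median distance was 1328 bp, against 285 bp for all thresholded peaks. Counting introns of any gene, 12 of the 13 summits were in introns and in no exon, against 43.0% of all thresholded summits. In 10 of them the intron was the pathway gene's own, and 3 of the 13 summits were outside that gene. A start site of the gene's own had a thresholded summit within 500 bp in 1 of 9 genes, shn, against 14.4% of protein-coding genes. Counted by start site, this was 1 of 22, against 12.8% of the distinct start sites of protein-coding genes. In the pooled list 17 of the 22 start sites had a summit within 500 bp, against 54.1%, and all 9 genes had a peak by the 2000 bp rule, against 76.4%. Of the 119 pooled-list peaks below the threshold, 36.1% had a summit within 100 bp in both replicates, against 29.0% of all such peaks.

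**Figure D5:**
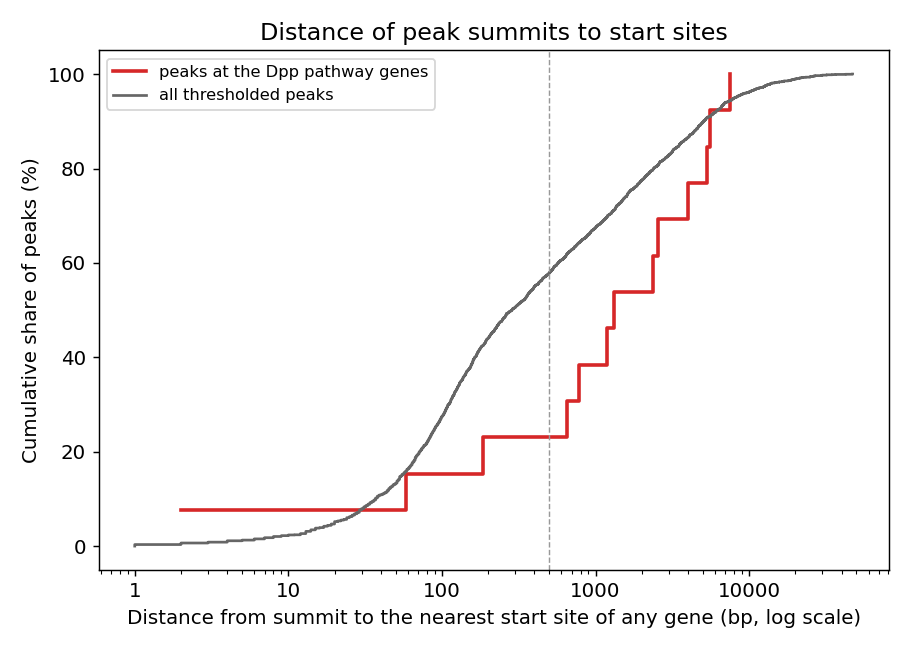
Cumulative share of peaks by the distance of the summit to the nearest start site of any gene (bp, log scale). The red line is the 13 thresholded peaks at the pathway genes and the grey line all 2758 thresholded peaks; the dashed line marks 500 bp. At 500 bp the red line stands at 3 of 13 peaks and the grey one at 57.9%, and the medians are 1328 and 285 bp.

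The windows of 201 bases around the 13 summits were searched on both strands for sequences known from the pathway and from promoters. GTCTG was in 2 of 13 windows, both at shn, against 17.6% of all thresholded windows and 22.9% of windows centred on protein-coding start sites. At shn the sites were 22 bp from the summit at 11197090 and 3 bp from the summit at 11173619. GCCGNCG, the Mad site, was in 0 of 13, against 3.99% and 10.0%. A Brk site was in 1 of 13, the lower Dad peak, against 17.7% and 21.6%. The silencer element, through which Mad, Med and Schnurri act on brk, was in 0 of 13, against 0.0363% and 0.0416%, and the activating element was in 0 of 13, against 0.145% and 0.0831%. A match describes the letters only, and a lack of one says nothing of binding.

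CACTG was in 8 of 13 windows, against 48.3% of all thresholded windows and 36.9% of start site windows. Within 50 bp of the summit it was in 3 of 13, against 23.9% and 23.1%, so the shares were close at that width. The 8 in the longer windows were those at dpp and Mad, both Med peaks, the higher Dad peak and the shn peaks at 11197090, 11195894 and 11184552. At the shn summit at 11195894 a copy was centred 5 bp away. GAGAG, the sequence bound by the GAGA factor, was in 4 of 13, against 23.9% and 25.0%, with 4 overlapping or separate copies each at the shn summits 11173619 and 11185795. These 2 shn windows were also the richest in G and C of the 13, at 44.3% and 43.3%, and neither held CACTG. The median content of G and C was 32.3% over the 13 windows and 36.3% over all thresholded windows. The Dref site (TATCGATA) and core promoter motif 1 were in 0 of 13, against 4.60% and 1.60% of all thresholded windows and 6.45% and 3.25% of start site windows. Core promoter motif 1 can share bases with CACTG. With 13 windows, a share of this kind moves by several percentage points for each window.

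Among 46 further genes of the pathway and its relatives, listed by role, 22 had a thresholded peak by the same rule (47.8%), with 41 peaks in all. The list holds many long genes, with 32 of 46 in the longest quartile of span, where 39.1% of all genes had a peak. It was compiled with results of these data known, so the count is a description. Of protein-coding genes of any length 25.9% had a peak. The longest quartile holds both receptor genes, all 8 intracellular genes and 9 of the 13 extracellular modulators. It also holds 3 of the 6 ligand genes and 10 of the 17 targets. The counts by role given below rest on few genes each, and no difference between roles is read from them. Only 18 of the 41 peaks had the listed gene's own start site as the nearest one, and 9 of the 22 genes had no such peak.

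Among ligand genes 2 of 6 had a peak, and both peaks were at a start site of another gene. The peak 1173 bp upstream of gbb, which encodes the second main ligand of the bone morphogenetic protein type, had a signal of 454 at rank 43, 59 bp from a start site of asRNA:CR45928. The peak assigned to myo lay 24 bp from a start site of ey, with 70.4 at rank 2619. There was none at scw, mav, Actbeta or daw. Both further receptor genes had peaks. At wit, a type II receptor gene, the summit was 1116 bp downstream of the start site, with 136 at rank 721. That summit was 1112 bp from a start site of CG32259. At babo, the activin receptor gene, both peaks were upstream, with 124 at rank 890 and 69.6 at rank 2671. The first had no summit within 100 bp in replicate 2 and lay 247 bp from start sites of CG33199 and CG8229, and the second lay 15 bp from one of Tom7.

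Extracellular modulators of the ligands had peaks at 6 of 13 genes. At dlp, a glypican gene, there were 4. The highest had 180 at rank 384, 33545 bp downstream of the nearest dlp start site and 4200 bp from a start site of lncRNA:CR45888. Another was 114 bp upstream of a dlp start site, with 72.7 at rank 2450. At cv-2, a gene for a protein that binds the ligand, a peak in the gene had 172 at rank 435 and one 20 bp from the start site had 92.6 at rank 1583. At dally, the other glypican gene, a peak 16 bp from a start site had 87.1 at rank 1755. Peaks within 500 bp of an own start site were also found at magu (170, rank 445) and nord (97.3, rank 1430). The peak at srw (85.9, rank 1795) was 21 bp from a start site of CG11583. No thresholded peak was assigned to sog or tsg, genes for proteins that carry and inhibit the ligand, or to tld, tok, cv, cv-d and cmpy.

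All 8 intracellular genes are in the longest quartile of span (39.1% with a peak over all genes), and 5 of the 8 had peaks. The highest was at gro, the gene of the corepressor Groucho, with 241 at rank 194, 175 bp upstream of a start site, and a second peak there had 119 at rank 965. At nej, the gene of a histone acetyltransferase and coactivator, the higher peak, 685 bp upstream of a start site, had 166 at rank 478. That peak lay 438 bp from a start site of lncRNA:CR42657. The other nej peak, 349 bp upstream of a start site, had 84.9 at rank 1837 and no summit within 100 bp in replicate 2. Smox, the Smad of the activin branch, had 151 at rank 584, 85 bp from a start site of CG17982. Snoo, with 114 at rank 1053, had its higher peak 12285 bp downstream of a start site, and CtBP, another corepressor gene, had 69.2 at rank 2695. No peak was assigned to Smurf, Sara or fuss.

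Of 17 target genes 7 had a peak. At ush, which encodes a cofactor of GATA factors, there were 10 peaks, including the highest of the whole list (1148, rank 1), whose nearest start site is that of cbt. Peaks within 500 bp of an own start site were found at ush (71.5, rank 2542), tin (70.6, rank 2607) and salm (72.5, rank 2463), all near the low end of the list. This ush peak had no summit within 100 bp in replicate 4. The peak at Ance (176, rank 413) was 53 bp from a start site of Smg5. The higher tup peak (168, rank 459) was 170 bp from a start site of CG10602. The lower one (73.6, rank 2405) was 102 bp from start sites of CG10602 and mRpL13. These tup summits were 23412 and 21911 bp downstream of the nearest tup start site. At bi, a peak 19095 bp downstream of a start site had 73.1 at rank 2431, and at Doc2 one beyond the 3' end had 73.0 at rank 2433. There was none at salr, vg, pnr, zen, Doc1, Doc3, peb, bap, bam or lab.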

How the data were processed

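CG12744-GFP was immunoprecipitated from whole embryos, and fragments of 200 to 800 bp were used, per the labels. The authors deposited peak lists on dm6 in narrowPeak format: 1 per replicate and 1 pooled list, each made from alignments with a control, and, made from these, a list of peaks that passed an irreproducible discovery rate step, per the deposited text records. The signal is the value the authors deposited for each peak. By this signal the thresholded peaks were the 2758 highest of the pooled list. Of them 2604 had a summit within 100 bp in both replicate lists. How reads were aligned and peaks found was not given in the sources used here. In the deposited files each peak has a −log10 q value, which is the same at every thresholded peak and was not used to rank peaks. The replicate and pooled lists hold background regions beside peaks, per the same records. The control and the dm3 lists were not used here.

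Genes and start sites came from Ensembl release 115 and sequence from RefSeq's Release 6 genome, the same build; transposable elements were left out. Coordinates are 1-based. A summit was assigned to a gene within 2000 bp, replicate summits were matched within 100 bp, and motifs were searched within 100 bp of a summit. No statistical test was run, since there is 1 group and the members, lists and motifs were chosen with earlier results of these data known. The named genes are the 9 members, the listed pathway genes with a peak, up to 6 per role by signal, the nearest genes of member peaks and the neighbours in rank of the highest one; tin and the genes nearest to other named peaks were added after their values were seen. Peak assignment and motif search were tested on simulated data. Python 3.11.15, numpy 2.4.6 and matplotlib 3.10.9 were used.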

Additional observations from a re-analysis of the deposited data

How the results depend on the processing

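The 13 peaks and 6 genes were counted again under other rules. With no margin beside the gene or one of 500 bp there were 10 peaks at 4 genes, since brk and Med lost theirs; with 5000 bp there were 14 at 7 genes, sax included. Of all protein-coding genes 19.2% had a peak with 500 bp and 36.9% with 5000 bp. The 1379 highest thresholded peaks left 7 peaks at 5 genes, without dpp. Leaving out a replicate gave 12 to 16 peaks and 6 to 8 genes, 25.2 to 26.1% of protein-coding genes, and 20 further pathway genes each time. The percentage of protein-coding genes with a peak was 8.23 with no margin, 15.1 with the 1379 highest peaks and 14.2 when a peak counted for the nearest protein-coding start site only; the further pathway genes with a peak were then 11, 13 and 13. Within 1000 bp of a start site lay 5 of the 13 summits. Wider motif windows of 250 bp to each side held GTCTG at 5 of 13 peaks, against 43.7% of all thresholded windows, and a Brk site at 5, against 43.1%. Windows of 50 bp to each side held CACTG at 3, against 23.9%, and GAGAG at 2, against 11.6%. The density of peaks without shn or Med was computed after seeing the data. Read depth is unknown, so a gene without a thresholded peak is one where none was detectable in these lists, and the 2 replicates give no error for a single signal.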
